A study of Gallus gallus with 3 samples.

Results

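The small leucine-rich proteoglycans were followed in single cells of the chicken forelimb. Members were the rows whose gene symbol was DCN, LUM, KERA, OGN, BGN, FMOD, EPYC or PRELP, and 7 of these 8 symbols were listed among 24356 genes. BGN (biglycan) was not listed by symbol and was not analysed under that name. The files list a row named ASPN (asporin, ENSGALG00000004722), while the RefSeq annotation of GRCg7b has a gene named BGN between ECM2 and OMD and none named ASPN, so whether the ASPN row holds BGN was not settled. It was not counted among the members. The symbols were chosen by family membership and not by measured values, though earlier results of these data were known.

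Forelimbs of chicken (Gallus gallus) embryos were dissociated at embryonic day 4 (E4, 2 embryos), E6 (3 embryos) and E10 (3 embryos), and the embryos of a stage were pooled into 1 library of 3′-end RNA counts. The labels gave no treatment, genotype or strain. With 1 library per stage there was no replicate check and no test: intervals are exact 95% intervals, cover counting error only, and cells are not replicates. Cells were barcodes with at least 1000 (E4), 700 (E6) or 450 (E10) UMIs (unique molecular identifiers, each standing for 1 captured RNA molecule), which left 5235, 4237 and 27361 cells.

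The libraries differed in depth: the median UMIs per cell were 3645 (E4), 2216 (E6) and 1081 (E10). The E10 library held 27361 such barcodes although 5000 cells were loaded per stage, so stage differences were also computed over the 5000 barcodes with the most UMIs. The study itself reports far more than 5000 E10 cells after its own quality control. Between 13 and 35 barcodes were shared by a pair of libraries, and leaving them out changed none of the 9 main counts of members. RNA free in the droplets was estimated from haemoglobin alone, at 0.235% (E4), 0.814% (E6) and 4.83% (E10) of the UMIs in cells. The estimate is the haemoglobin level in cells under 10% haemoglobin over that in barcodes with 2 to 50 UMIs. It rested on 148, 45 and 7441 haemoglobin UMIs in those cells. Levels are CPM, the UMIs of a gene per 1000000 UMIs of a group of cells. They are not divided by gene length, since 1 UMI marks 1 transcript end, but how well each annotated 3′ end was captured is unknown. A gene was compared when both groups together held at least 50 UMIs, and it was counted as higher or lower past 2-fold. A gene scarce in 1 group can reach 50 UMIs through the other group alone, which fixes the direction in which it can be counted.

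Small leucine-rich proteoglycans are secreted core proteins of leucine-rich repeats, most of which carry glycosaminoglycan chains. They bind collagen and set the diameter and spacing of its fibrils. In tendon and muscle connective tissue (CT) they are among the main non-collagen components of the matrix. Decorin (DCN, ENSGALG00000011274) carries a chondroitin or dermatan sulphate chain. Lumican (LUM, ENSGALG00000011271), keratocan (KERA, ENSGALG00000011270) and fibromodulin (FMOD, ENSGALG00000034067) are keratan sulphate members. Osteoglycin (OGN, ENSGALG00000026736), also called mimecan, and epiphycan (EPYC, ENSGALG00000011269), known from growth cartilage, belong to a separate class of the family. PRELP (ENSGALG00000034456) binds heparan sulphate and collagen at basement membranes. The files give no coordinates, and in the RefSeq annotation of the GRCg7b assembly, which is not the build of these files, EPYC, KERA, LUM and DCN were consecutive coding genes on chromosome 1. In the same annotation OGN lay on chromosome 12 next to OMD, and FMOD and PRELP were neighbours on chromosome 26.

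Cells were grouped by markers of the study, each called positive with at least 1 UMI. PDGFRA, which the study also used as a CT marker, was left out, so cells without a CT marker here can hold it. PRRX1 marks limb mesenchyme of lateral plate origin, OSR1 muscle CT, SCX tendon, and TWIST2 a further set of limb CT fibroblasts. Muscle-marker cells held a UMI of PAX7, MYF5, MYOD1 or MYOG. The PRRX1+ cells numbered 4565 (E4), 2400 (E6) and 6478 (E10). OSR1+ cells numbered 141, 336 and 2010 at these stages, SCX+ cells 800, 611 and 1034, TWIST2+ cells 1541, 1510 and 5443, and muscle-marker cells 63, 400 and 5593. These groups overlap, and a cell of low depth can lack a marker that it transcribes.

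Of all UMIs, members together held 0.0492% (E4), 0.110% (E6) and 0.287% (E10). LUM was the member with the most UMIs at E4, with 49.4% of the members' UMIs, and DCN followed with 42.1%. At E6 DCN held 63.1% and LUM 21.7%, and at E10 DCN held 74.7% and LUM 10.8%. At full depth 65.0% of E4 cells, 70.7% of E6 cells and 72.0% of E10 cells held at least 1 member UMI. After every cell was thinned to 450 UMIs the shares were 19.5%, 35.2% and 55.0%.

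DCN stood at 207.4 CPM (95% interval 201 to 214) at E4, 691.6 (676 to 708) at E6 and 2143 (2127 to 2159) at E10. LUM stood at 243.1, 238.1 and 309.3 CPM, KERA at 24.0, 39.6 and 211.7 CPM, and OGN at 15.4, 119.8 and 174.5 CPM at the same stages. DCN and OGN were thus higher at E6 than at E4, KERA was higher at E10, and LUM varied least. The other members were scarce. PRELP had 20, 48 and 442 UMIs (0.962, 4.68 and 13.3 CPM), FMOD had 4, 7 and 412 UMIs (0.192, 0.682 and 12.4 CPM), and EPYC had 21, 19 and 103 UMIs (1.01, 1.85 and 3.09 CPM).

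**Figure D1:**
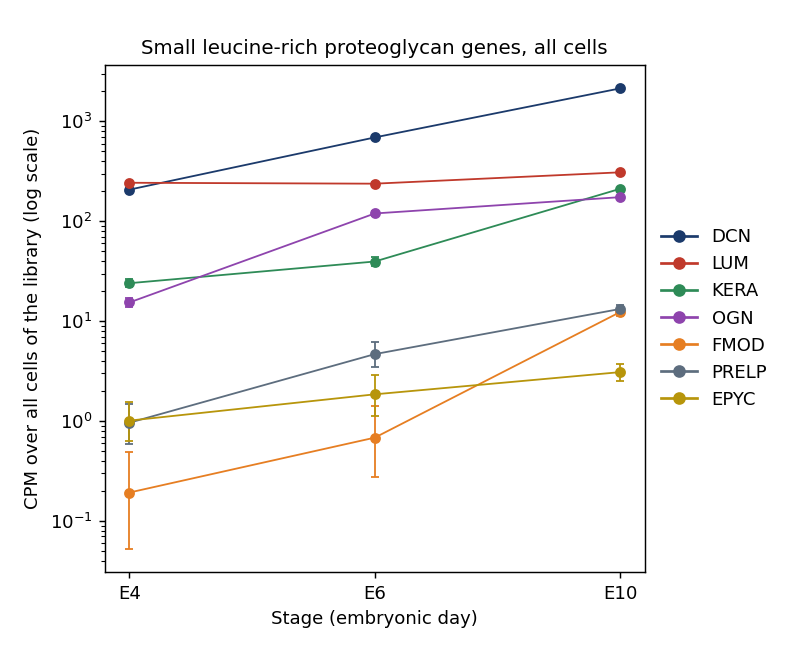
CPM of the 7 members over all cells of the library (log scale) at E4, E6 and E10; points are values and bars exact 95% counting intervals, with 1 library per stage. DCN reached 2143 CPM at E10, LUM stayed between 238.1 and 309.3 CPM, and FMOD reached 12.4 CPM at E10 against 0.682 CPM at E6.

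At E6 over E4, 3 of the 5 members compared were at least 2-fold higher (DCN 3.34-fold, OGN 7.79-fold and PRELP 4.86-fold), while 9.5% of 10575 genes were. None was 2-fold lower, against 3.9% of genes. PRELP rested on 48 UMIs at E6 and 20 at E4 (interval 2.83 to 8.65), and at equal levels it would have had too few UMIs to be compared. KERA was 1.65-fold higher (interval 1.44 to 1.88) and LUM had a ratio of 0.979 (0.933 to 1.03). The median log2 ratio was 1.74 over the members and -0.02 over all genes compared.

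At E10 over E6, 4 of 7 members were at least 2-fold higher, with 10.2% of 11606 genes as background. These were DCN (3.10-fold, 3.02 to 3.18), KERA (5.35-fold, 4.84 to 5.92), FMOD (18.1-fold, 8.71 to 45.3, on 7 UMIs at E6) and PRELP (2.83-fold, 2.10 to 3.90). No member was 2-fold lower, against 5.67% of genes. FMOD was compared only through its E10 UMIs, so it could be counted as higher but not as lower. LUM was 1.30-fold, OGN 1.46-fold and EPYC 1.67-fold higher, and the median log2 ratio was 1.503 over the members and -0.04 over all genes. A cut to the 5000 cells with the most UMIs kept every E6 cell and so fell on E10 alone. With it the same 4 members stayed past 2-fold, with log2 ratios of 1.17 for DCN, 1.90 for KERA, 4.14 for FMOD and 1.19 for PRELP. LUM and OGN then lay on the other side of 0, at -0.15 and -0.26. Stages also differ in embryos, library and depth, which cannot be told apart from age.

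Within the marker groups the stage differences were not uniform. The DCN ratio at E6 over E4 was 6.94-fold in OSR1+ cells, 4.05-fold in SCX+ cells, 2.80-fold in TWIST2+ cells, 2.72-fold in PRRX1+ cells and 1.48-fold in muscle-marker cells (1.04 to 2.17). All 4 members compared were past 2-fold in OSR1+ cells (6.99% of genes), 3 of 4 in SCX+ cells (6.65%), 2 of 4 in PRRX1+ cells (8.32%), 2 of 4 in TWIST2+ cells (8.0%) and 0 of 2 in muscle-marker cells (7.29%). KERA in OSR1+ cells had 8 UMIs at E4 and 44 at E6, and was compared only through its E6 UMIs. LUM was past 2-fold in OSR1+ cells alone, where it reached 227.9 CPM at E6, against 80.7 CPM at E4. No test of a difference between the groups was possible, and the E4 OSR1+ cells numbered 141.

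OGN had the largest ratios of these at E6 over E4 in the CT groups other than OSR1+. It reached 108.8 CPM at E6, against 15.5 CPM at E4, in PRRX1+ cells (7.02-fold, 6.11 to 8.08). It reached 134.1 against 12.8 CPM in SCX+ cells (10.5-fold, 7.58 to 14.7) and 149.4 against 16.0 CPM in TWIST2+ cells (9.32-fold, 7.55 to 11.6). In OSR1+ cells it was 149.9 CPM at E6 and 42.5 CPM at E4 (3.52-fold, 2.34 to 5.48), from a higher E4 level.

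At E10 over E6, KERA was 10.7-fold higher in PRRX1+ cells (9.19 to 12.5), 10.1-fold in SCX+ cells (8.08 to 12.7), 7.36-fold in OSR1+ cells (5.44 to 10.2) and 3.58-fold in TWIST2+ cells (3.11 to 4.13). DCN was 5.97-fold higher in SCX+ cells, 4.52-fold in PRRX1+ cells, 4.25-fold in OSR1+ cells and 2.61-fold in TWIST2+ cells. The TWIST2+ cells thus had the smallest ratio for both genes among the CT groups. Past 2-fold were 5 of 7 members in PRRX1+ cells (9.32% of genes), 3 of 4 in OSR1+ cells (7.89%), 3 of 5 in SCX+ cells (6.61%), 4 of 6 in TWIST2+ cells (7.78%) and 3 of 5 in muscle-marker cells (6.7%). Some of these were compared only through their E10 UMIs and could not have been counted as lower. In PRRX1+ cells these were FMOD (2 UMIs at E6, 184 at E10), EPYC (12 and 43) and PRELP (17 and 126). The others were FMOD in SCX+ (2 and 133) and TWIST2+ cells (3 and 95), and PRELP in muscle-marker cells (3 and 93).

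**Figure D2:**
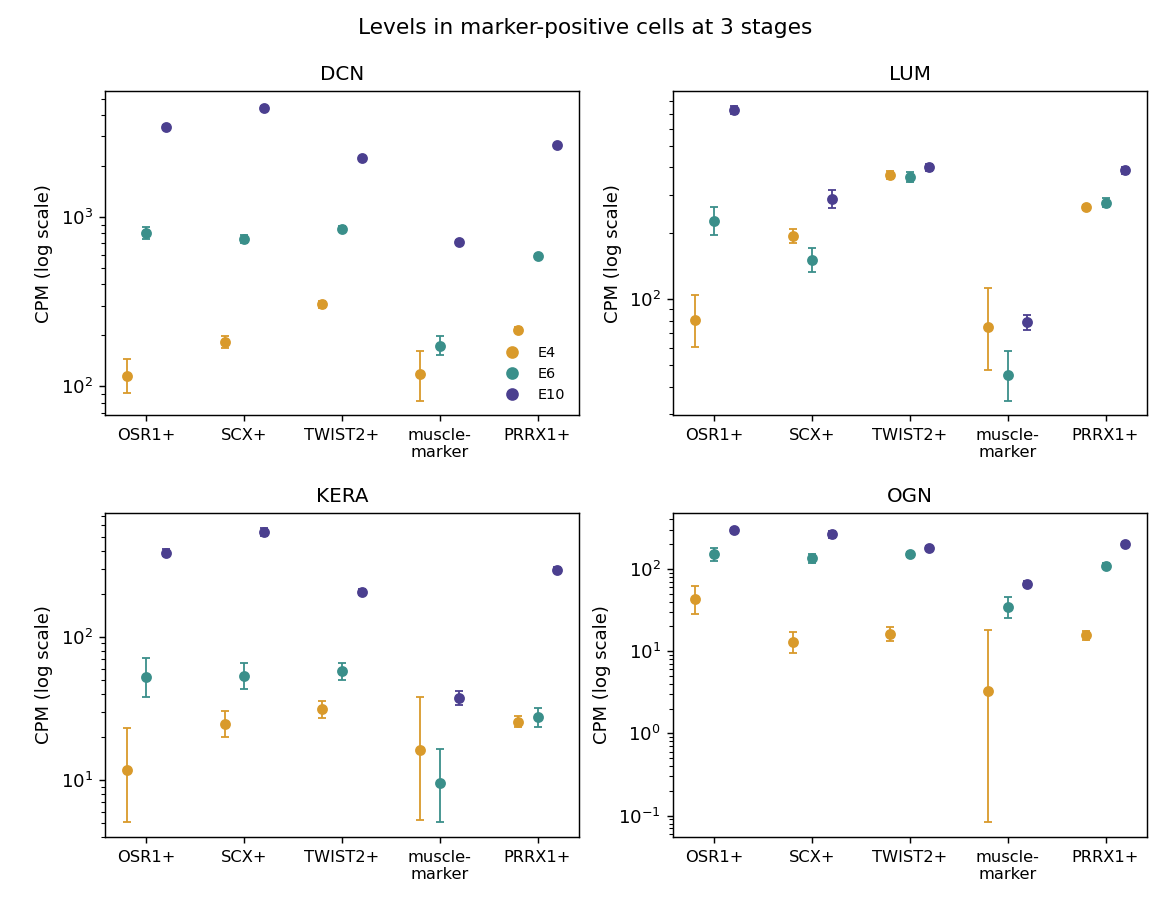
CPM (log scale) of DCN, LUM, KERA and OGN in OSR1+, SCX+, TWIST2+, muscle-marker and PRRX1+ cells at E4, E6 and E10; bars are exact 95% counting intervals. At E10 DCN was highest in SCX+ cells (4429 CPM) and LUM in OSR1+ cells (728.6 CPM), and each of the 4 genes was lowest in muscle-marker cells.

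DCN at E4 was 304.5 CPM (291 to 318) in TWIST2+ cells, 215.9 (209 to 223) in PRRX1+ cells, 183.1 (169 to 198) in SCX+ cells, 117.5 (82.3 to 163) in muscle-marker cells and 115.9 (91.7 to 144) in OSR1+ cells. At E10 the order was SCX+ with 4429 CPM (4322 to 4537), OSR1+ with 3418 (3347 to 3490), PRRX1+ with 2654 (2620 to 2688), TWIST2+ with 2225 (2192 to 2259) and muscle-marker with 708.6 (691 to 727). TWIST2+ cells were highest at E4 and behind the other CT groups at E10, while OSR1+ cells, lowest at E4, lay above PRRX1+ cells at E10. At E6 the TWIST2+ (851.4 CPM), OSR1+ (804.9 CPM) and SCX+ (741.9 CPM) cells were closer together. Neighbouring intervals overlapped at E4 between OSR1+ and muscle-marker cells, and none of those given overlapped at E10. DCN UMIs were also spread unevenly over cells: a DCN-positive cell held 2.01 (E4), 2.82 (E6) and 3.87 (E10) DCN UMIs on average, with 12, 27 and 63 in the cell with the most.

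LUM had nearly the order of DCN at E4 and another order at E10. At E4 it was 368.9 CPM in TWIST2+ cells, 262.5 in PRRX1+ cells, 194.0 in SCX+ cells, 80.7 in OSR1+ cells and 75.1 in muscle-marker cells. At E10 it was 728.6 CPM in OSR1+ cells (696 to 762), 399.2 in TWIST2+ cells (385 to 414), 387.0 in PRRX1+ cells (374 to 400), 287.4 in SCX+ cells (261 to 316) and 78.8 in muscle-marker cells (72.9 to 85.0). TWIST2+ and PRRX1+ cells did not differ beyond their counting intervals at E10.

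KERA at E4 lay between 11.7 CPM in OSR1+ cells and 31.1 CPM in TWIST2+ cells. At E10 it was 541.6 CPM in SCX+ cells (505 to 580), 388.3 in OSR1+ cells (364 to 413), 293.8 in PRRX1+ cells (283 to 305), 206.1 in TWIST2+ cells (196 to 217) and 37.5 in muscle-marker cells (33.5 to 41.9). OGN at E10 was 295.5 CPM in OSR1+ cells (275 to 317), 262.3 in SCX+ cells (237 to 290), 200.4 in PRRX1+ cells (191 to 210), 177.2 in TWIST2+ cells (168 to 187) and 66.2 in muscle-marker cells (60.8 to 72.0). For OGN the OSR1+ and SCX+ intervals overlapped.

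Each marker group was then set against all other cells of its library. In E10 SCX+ cells 4 of 7 members were at least 2-fold higher, with 4.24% of 10974 genes as background: FMOD with 89.9 CPM against 8.76 CPM in the other cells (10.3-fold, 8.29 to 12.7), KERA with 541.6 against 196.4 CPM (2.76-fold, 2.56 to 2.97), DCN with 4429 against 2037 CPM (2.17-fold, 2.12 to 2.23) and EPYC with 6.09 against 2.95 CPM. The EPYC ratio rested on 9 UMIs in SCX+ cells and its interval ran from 0.915 to 4.08. LUM had a ratio of 0.926 (0.838 to 1.02). No member was 2-fold lower, against 10.1% of genes, and the median log2 ratio was 1.04 over the members and -0.08 over all genes. With cells thinned to 450 UMIs, KERA and FMOD alone stayed past 2-fold.

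In E10 OSR1+ cells 1 of 7 members was 2-fold higher (2.67% of genes), namely LUM with 728.6 against 274.3 CPM in the other cells (2.66-fold, 2.52 to 2.79). KERA (1.97-fold) and OGN (1.80-fold) lay just under the threshold. Both passed it with the cells of the highest doublet scores left out, and KERA also with 2 OSR1 UMIs required. FMOD was the member 2-fold lower (5.68% of genes), with 12 UMIs or 4.68 CPM in OSR1+ cells against 13.001 CPM elsewhere (ratio 0.360, 0.184 to 0.636). In E10 PRRX1+ cells FMOD alone of 7 members was past 2-fold (1.83% of genes), with 20.7 against 9.33 CPM (2.22-fold, 1.82 to 2.71). In E10 TWIST2+ cells 0 of 7 were (3.82% of genes), and the ratios ran from 0.719 for EPYC to 1.41 for LUM.

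The same comparisons at the earlier stages named other members. At E4 the PRRX1+ cells, 87.2% of the library, were past 2-fold for LUM (262.5 against 90.0 CPM, 2.92-fold) and KERA (25.6 against 11.1 CPM, 2.30-fold), 2 of 4 members with 2.68% of genes as background. The E4 OSR1+ cells were 2-fold higher for OGN alone of 4 (1.94% of genes), with 42.5 against 14.5 CPM (2.94-fold, 1.93 to 4.31). They were 2-fold lower for LUM (80.7 against 248.6 CPM, ratio 0.325, 0.244 to 0.423) and for KERA (11.7 against 24.4 CPM, on 8 UMIs, and 0.96 on the log2 scale, in the other direction, with 2 OSR1 UMIs required, which 12 cells held), 2 of 4 with 5.29% of genes. At E4, 0 of 4 members were past 2-fold in SCX+ cells (0.198% of genes) and 0 of 4 in TWIST2+ cells (0.407%), where LUM reached 1.98-fold and DCN 1.86-fold.

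At E6 the TWIST2+ cells were past 2-fold for LUM (360.2 against 160.8 CPM, 2.24-fold) and KERA (57.6 against 28.2 CPM, 2.04-fold), 2 of 4 members with 0.938% of genes. The E6 PRRX1+ cells were 2-fold lower for KERA alone of 4 (2.94% of genes), with 27.5 against 60.4 CPM (ratio 0.455, 0.372 to 0.556), and DCN had a ratio of 0.675 there. No member was 2-fold higher in E6 OSR1+ cells (1.33% of genes) or E6 SCX+ cells (0.61%).

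**Figure D3:**
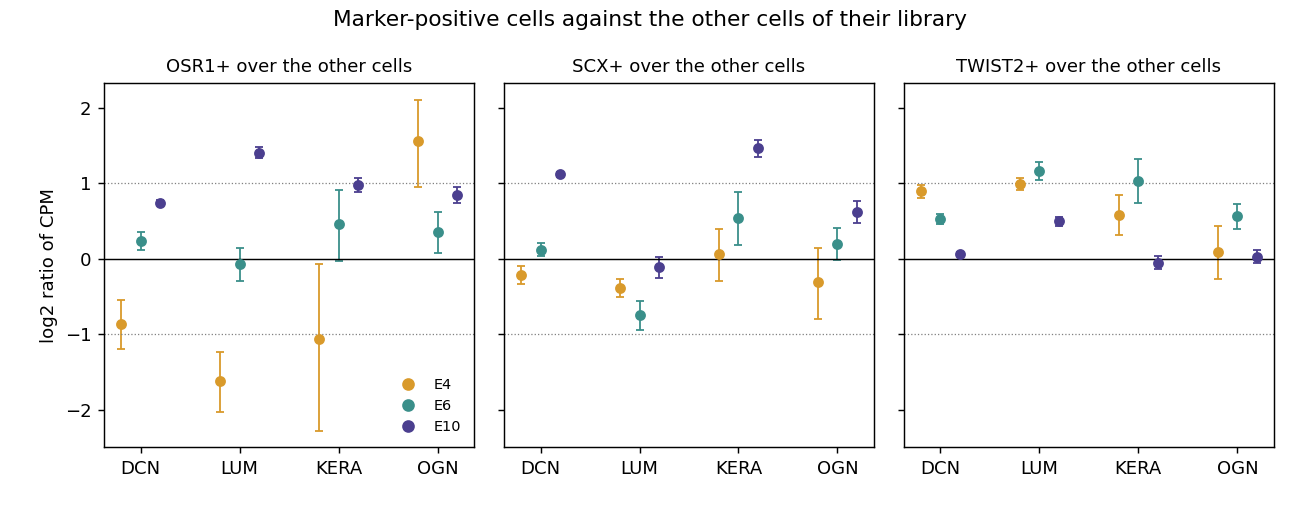
log2 ratio of CPM, OSR1+, SCX+ or TWIST2+ cells over all other cells of the same library, for DCN, LUM, KERA and OGN at E4, E6 and E10; bars are 95% counting intervals and dotted lines mark 2-fold. LUM in OSR1+ cells lay at -1.62 at E4 and 1.41 at E10, and KERA in SCX+ cells at 1.46 at E10.

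Cells with UMIs of 1 CT marker among SCX, OSR1 and TWIST2 and of no muscle marker separate the groups without overlap. At E10 there were 775 cells with SCX alone, 1305 with OSR1 alone and 4440 with TWIST2 alone, with median depths of 1206, 1041 and 1228 UMIs. DCN stood at 4472 CPM in the SCX cells, 3998 in the OSR1 cells and 2082 in the TWIST2 cells. LUM stood at 259, 862 and 387 CPM, KERA at 523, 459 and 176 CPM, OGN at 274, 347 and 169 CPM, and FMOD at 90.0, 4.72 and 9.39 CPM in the same order. SCX cells and OSR1 cells shared high DCN and KERA levels and differed in LUM and FMOD.

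Of 5 members compared between SCX-alone and OSR1-alone cells at E10, 1 was past 2-fold higher (FMOD, 19.1-fold, 8.91 to 48.8, with 7 UMIs in OSR1 cells, and 2.71% of genes) and 1 lower (LUM, ratio 0.301, 0.263 to 0.343, with 4.81% of genes). SCX-alone over TWIST2-alone cells were higher for 3 of 6 (4.12% of genes), DCN (2.15-fold), KERA (2.97-fold) and FMOD (9.59-fold). OSR1-alone over TWIST2-alone cells were higher for a different 3 of 6 (4.25% of genes), LUM (2.23-fold), KERA (2.61-fold) and OGN (2.05-fold, 1.84 to 2.28). KERA was thus the member in both of these sets.

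At E4 the SCX-alone cells were lower than the TWIST2-alone cells for DCN (157 against 321 CPM, ratio 0.489) and LUM (165 against 399 CPM, ratio 0.413), 2 of 4 members with 0.927% of genes. The E4 OSR1-alone cells, 87 in number, were lower than TWIST2-alone cells for DCN (ratio 0.369), LUM (ratio 0.220) and KERA (ratio 0.233, on 3 UMIs, and on the other side of 1 with 2 marker UMIs required), 3 of 4 with 4.65% of genes, and higher for OGN (45.3 against 14.6 CPM, 3.10-fold, 1.74 to 5.23), 1 of 4 with 1.69%. At E6 LUM alone of 4 members was 2-fold lower in SCX-alone than in TWIST2-alone cells (118 against 408 CPM, ratio 0.290, with 1.91% of genes).

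**Figure D4:**
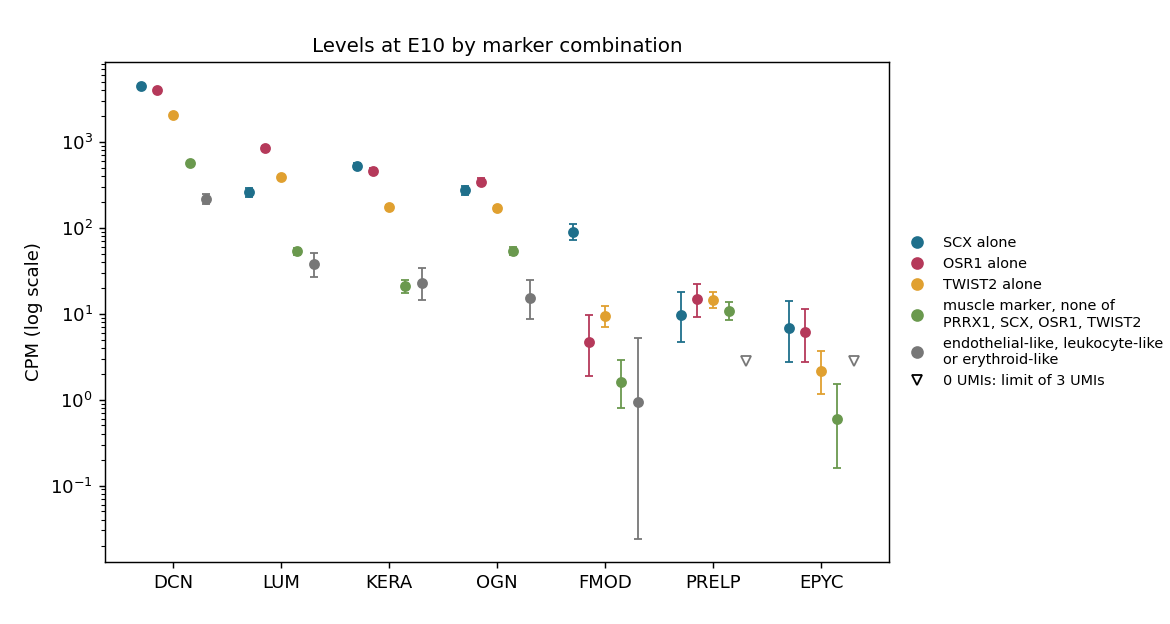
CPM (log scale) of the 7 members at E10 in cells with SCX, OSR1 or TWIST2 alone, in muscle-marker cells with none of PRRX1, SCX, OSR1 or TWIST2, and in endothelial-like, leukocyte-like or erythroid-like cells; bars are exact 95% counting intervals and open triangles mark the limit of 3 UMIs for a count of 0. FMOD lay at 90.0 CPM in SCX-alone cells against 4.72 CPM in OSR1-alone cells, and DCN in the endothelial-like, leukocyte-like or erythroid-like cells at 215.2 CPM.

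Muscle-marker cells were set against PRRX1+ cells that held no muscle marker. At E10, 5 of 6 members were at least 2-fold lower, with 13.8% of 9624 genes as background, and the median log2 ratio was -2.21 over the members and -0.03 over all genes. DCN stood at 708.6 CPM in muscle-marker cells against 2850.04 CPM in PRRX1+ cells (ratio 0.249, 0.241 to 0.256). LUM stood at 78.8 against 416.6 CPM (0.189), KERA at 37.5 against 320.5 CPM (0.117), OGN at 66.2 against 212.9 CPM (0.311) and FMOD at 2.51 against 22.5 CPM (0.111, on 21 UMIs in muscle-marker cells). PRELP was the member not past 2-fold, with 11.1 against 14.7 CPM (0.756, 0.569 to 1.002). E10 cells classed as muscle were 20.3% of the cells and held 24.8% of all UMIs. They held 8.19% of the UMIs of DCN, 4.45% of those of KERA and 20.6% of those of PRELP.

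At E6 the 4 members compared were all 2-fold lower (8.61% of genes), with DCN at 174.0 against 610.0 CPM, LUM at 45.2 against 290.5 CPM, KERA at 9.63 against 27.8 CPM and OGN at 34.1 against 113.7 CPM. At E4, with 63 muscle-marker cells, LUM (75.1 against 262.9 CPM, ratio 0.286, 0.181 to 0.429) and OGN (1 UMI in muscle-marker cells, ratio 0.210, 0.0053 to 1.18) were 2-fold lower, 2 of 4 members with 8.75% of genes. DCN was at 117.5 against 216.1 CPM (ratio 0.544) and KERA at 16.3 against 25.7 CPM.

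Some muscle-marker cells also held a UMI of PRRX1, OSR1, SCX or TWIST2: 26 (E4), 169 (E6) and 903 (E10) cells. At E6 and E10 DCN, LUM, KERA and OGN were more abundant in these than in muscle-marker cells without a CT marker. At E4, with the cells of the highest doublet scores left out, LUM stood at 168 CPM (101 to 263) and 22.9 CPM (6.24 to 58.7). KERA then stood at 17.7 CPM (2 UMIs) and 17.2 CPM (3 UMIs), and the E4 intervals of DCN, KERA and OGN overlapped. At E10 DCN was 1311 CPM (1255 to 1369) in cells with both kinds of marker and 567.9 CPM (550 to 586) in cells with a muscle marker only. LUM was 188 and 53.2 CPM, KERA 109 and 20.9 CPM, and OGN 118 and 54.1 CPM in these groups, and none of the intervals overlapped. At E6 DCN was 281 and 86.2 CPM, LUM 83.8 and 13.5 CPM, KERA 19.7 and 1.35 CPM (1 UMI), and OGN 49.3 (33.3 to 70.4) and 21.6 CPM (12.3 to 35.0), with overlapping OGN intervals. The cells with both kinds of marker were deeper at E10, with a median of 1595 against 1314 UMIs, and at E6, with 3531 against 3197 UMIs. After thinning to 450 UMIs, 38.5% of the E10 cells with both kinds of marker and 19.7% of those with a muscle marker only held a DCN UMI. The E10 cells of the highest doublet scores, 21.9% of the library, were 34.0% and 9.23% of these groups. With them left out, DCN at E10 stood at 1156 CPM (1089 to 1226) and 485 CPM (467 to 502). LUM then stood at 133 and 40.7 CPM, KERA at 98.3 and 9.96 CPM and OGN at 122 and 46.2 CPM. At E6, OGN then stood at 30.6 CPM (17.2 to 50.5) and 21.9 CPM (12.5 to 35.5), while DCN stood at 225 and 69.7 CPM and LUM at 81.7 and 8.20 CPM. The part of free RNA in the difference, and of doublets that the scores miss, was not tested.

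DCN in muscle-marker cells was set beside that in endothelial-like, leukocyte-like or erythroid-like cells. Of these 703 cells at E10, 472 were erythroid-like, and their haemoglobin UMIs lower the CPM of other genes. A CT marker was held by 8.53% of the 703. Whether these cells transcribe DCN was not tested. The 703 endothelial-like, leukocyte-like or erythroid-like cells of E10 held DCN at 215.2 CPM (188 to 245), LUM at 37.8, KERA at 22.7, OGN at 15.1 and FMOD at 0.944 CPM (1 UMI). EPYC and PRELP had 0 UMIs there, which allows up to 2.83 CPM. At E4 (24 cells) and E6 (14 cells) such cells held 0 DCN UMIs, which allows up to 21.6 and 90.9 CPM. At E10, 39.8% of muscle-marker cells without a CT marker held a DCN UMI, and 19.7% did after thinning to 450 UMIs. In the endothelial-like, leukocyte-like or erythroid-like cells these shares were 15.1% and 7.82%, at median depths of 1314 UMIs in the muscle-marker cells and 1217 UMIs in the others. KERA in the muscle-marker cells without a CT marker stood at 20.9 CPM (17.6 to 24.7), within the interval of those other cells (14.5 to 33.7 CPM). With the cells of the highest doublet scores left out, KERA in these muscle-marker cells stood at 9.96 CPM (7.62 to 12.8). The endothelial-like, leukocyte-like or erythroid-like cells were not filtered by doublet score, so this last value has no like counterpart. E10 cells with at least 3 markers of differentiated muscle, 1071 in number, held DCN at 779 CPM and LUM at 109 CPM. Of these, 647 were also muscle-marker cells, and 18.4% held a CT marker.

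FMOD was unevenly spread over the cell groups at E10. It was seen in 354 of 27361 cells, of which 58.5% (53.1 to 63.7) held a UMI of TNMD, the gene of the tendon membrane protein tenomodulin, against 13.5% of all cells. SCX was held by 31.9% of the FMOD-positive cells against 3.78% of all cells, PRRX1 by 44.4% against 23.7%, and OSR1 by 3.11% against 7.35%. FMOD-positive cells were deeper than average, with a median of 1349 against 1081 UMIs. Most TNMD+ cells lacked an SCX UMI: of 3703 at E10, 451 held SCX and 1743 held TWIST2. In TNMD+ cells FMOD stood at 46.0 CPM against 5.81 CPM in the other cells (7.91-fold, 6.47 to 9.70), 1 of 7 members past 2-fold with 3.61% of genes. At E4 and E6 there were too few FMOD UMIs to place it in a cell group.

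FMOD, KERA, DCN and LUM stood higher in SCX+ cells with at least 3 TNMD UMIs than in those with none. In E10 SCX+ cells with 0, 1, 2 and at least 3 TNMD UMIs, FMOD stood at 60.3, 67.5, 114 and 159 CPM, KERA at 396, 488, 560 and 886 CPM and DCN at 3704, 4575, 4972 and 5625 CPM. LUM stood at 225, 337, 343 and 359 CPM, and in cells without SCX between 308 and 325 CPM in these bins. OGN stood at 290, 270, 312 and 174 CPM, lowest where TNMD was highest. In cells without SCX, FMOD stood at 4.34, 22.0, 24.5 and 67.3 CPM and KERA at 190, 174, 203 and 382 CPM. These bins also differ in depth, with medians of 1148, 1314, 1430 and 1835 UMIs in SCX+ cells, and its part in the trend was not tested. In SCX+ cells with TNMD over SCX+ cells without it, 0 of 5 members were past 2-fold (0.933% of genes), with FMOD at 118.8 against 60.3 CPM (1.97-fold, 1.36 to 2.90) and KERA at 684 against 396 CPM (1.73-fold, 1.49 to 2.00). At E6, where 64 cells held a TNMD UMI, KERA alone of 4 members was past 2-fold in them, with 185 CPM (28 UMIs) against 37.4 CPM (4.95-fold, 3.24 to 7.27, with 7.86% of genes).

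**Figure D5:**
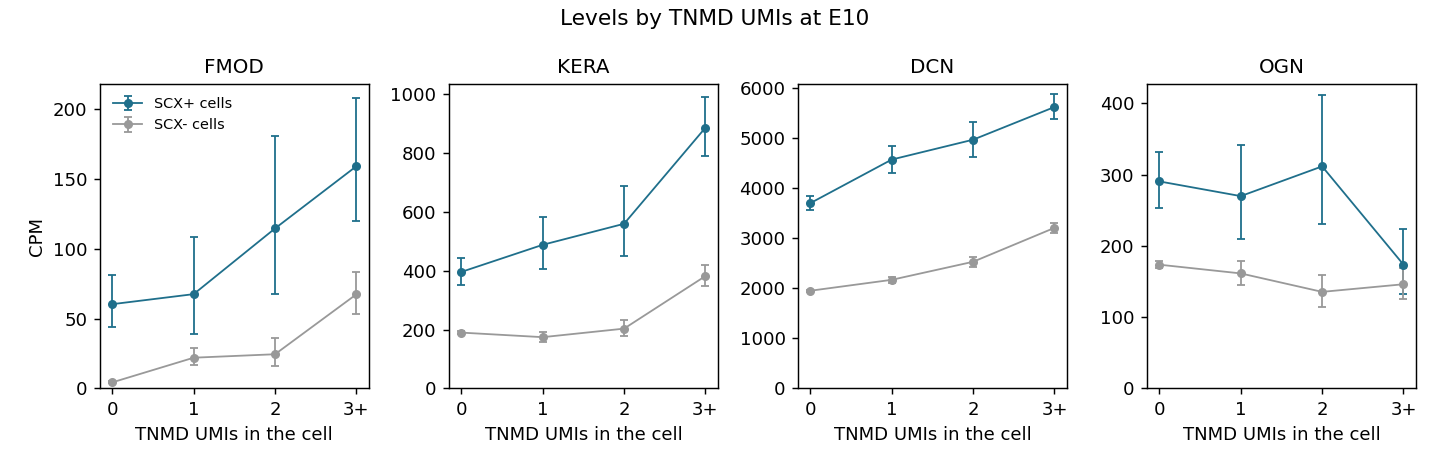
CPM of FMOD, KERA, DCN and OGN at E10 in SCX+ cells and in cells without SCX, by the number of TNMD UMIs in the cell (0, 1, 2, 3 or more); bars are exact 95% counting intervals. In SCX+ cells FMOD lay at 60.3 CPM without TNMD and at 159 CPM with at least 3 TNMD UMIs, and OGN at 290 and 174 CPM.

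EPYC and PRELP were too scarce for most comparisons. EPYC at E10 stood at 2.96, 2.41 and 4.29 CPM in cells with 0, 1 and 2 cartilage markers and at 74.8 CPM (27.5 to 163) in the 62 cells with at least 3, on 6 UMIs. In these 62 cells DCN stood at 1023 CPM, LUM at 49.9 and KERA at 12.5 CPM, and FMOD had 0 UMIs. With at least 2 cartilage markers (223 cells), 2 of 7 members were past 2-fold over the other cells, EPYC with 22.4 against 2.91 CPM (7.69-fold, 3.01 to 16.5, on 7 UMIs) and FMOD with 35.1 against 12.1 CPM (2.89-fold, 1.43 to 5.23), while 10.5% of genes were. PRELP was nearly even over the marker groups at E10, from 10.8 CPM in SCX+ cells to 15.6 CPM in OSR1+ cells. In the 132 smooth muscle-like or pericyte-like cells it stood at 65.4 CPM (33.8 to 114, on 12 UMIs), against 13.3 CPM over all cells.

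How often a pair of members shared a cell was set against the product of their shares. Among PRRX1+ cells thinned to the same depth within a stage, DCN and LUM were found together in 313 E4 cells, where the product of their shares gives 189 (1.66 times, 1.48 to 1.85), and in 1.35 times that product at E6 and 1.29 times at E10. LUM and KERA were found together in 1.82 times the product at E10 (1.57 to 2.11) and DCN and KERA in 1.39 times (1.28 to 1.505). KERA and OGN shared 0 of 4565 cells at E4, where the product gives 2.01, 2 of 2400 at E6 (0.694 times, 0.084 to 2.51), and 110 of 6478 at E10, where it gives 63.2 (1.74 times, 1.43 to 2.10). Pairs with OGN lay near the product at E4, with 1.01 times for DCN (0.551 to 1.69) and 0.736 times for LUM (0.392 to 1.26), and LUM and OGN also did at E6 (1.12 times, 0.763 to 1.59). At E10 all 6 pairs of DCN, LUM, KERA and OGN lay above the product, between 1.29 and 1.82 times.

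Genes with the most similar pattern were ranked over 31 combinations of stage and disjoint cell class, as Pearson's r of log2(CPM + 10) among 9717 genes. These points share libraries and depth, so r is a description. For DCN they were the collagen genes COL5A1 (r 0.947), COL1A2 (0.939) and COL6A2 (0.925). For LUM they were GLT8D2 (0.867), GLI2 (0.842) and FBLN1 (0.842), and for FMOD they were HTRA3 (0.954), THBS2 (0.920) and TNFAIP6 (0.917). OGN was nearest to LRRC17 (0.928), PTPRD (0.904) and ENSGALG00000028041 (0.894), which the study annotates as DKK2, a modulator of WNT signalling. PRELP was nearest to C1QTNF6 (0.936), HSPB1 (0.878) and CLEC3B (0.874). It stood at 66.2 CPM (12 UMIs) in the E10 smooth muscle-like or pericyte-like class and at most at 16.5 CPM in the other classes used. FMOD stood at most at 3.36 CPM in the E4 and E6 classes used, under the 10 CPM added before the logarithm. How far these r values rest on the few classes with higher levels was not tested. For KERA all 3 were genes without a symbol in the files, led by ENSGALG00000015307 (0.923). EPYC had too few UMIs. Among the members themselves DCN and KERA were the most alike (0.866) and LUM and FMOD the least (0.361).

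Of 10 genes of fibrillar and associated collagens, the proteins that members bind, 6 were at least 2-fold higher at E6 over E4 (9.5% of all genes) and 8 at E10 over E6 (10.2%). Their median log2 ratios were 1.60 and 2.38, against -0.02 and -0.04 over all genes. The extremes at E10 over E6 were COL3A1 with 1772 against 54.0 CPM (5.04) and COL5A2 with 127 against 75.8 CPM (0.75). In E10 muscle-marker cells over PRRX1+ cells all 10 were 2-fold lower (13.8% of all genes, median -2.78), from COL14A1 (-3.21) to COL5A2 (-1.60). In E10 SCX+ cells 4 of 10 were higher (4.24% of all genes), led by COL12A1 with 3001 against 583 CPM.

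Genes that build the sugar chains were counted in the same way, beside the same shares of all genes higher at E6 over E4 (9.5%) and at E10 over E6 (10.2%). Of the keratan sulphate genes, 3 of 8 were 2-fold higher at E6 over E4, led by the sulphotransferase gene CHST1 with 21.5 against 1.64 CPM, and 1 of 8 at E10 over E6, the galactosyltransferase gene B4GALT1 with 35.9 against 17.5 CPM. CHST1 was the 1 of 8 that was higher in E10 SCX+ cells (4.24% of all genes), with 26.4 against 10.4 CPM. Of the chondroitin and dermatan sulphate genes, 1 of 5 compared was higher at E6 over E4 (B4GALT7, 3.51 against 0.866 CPM). At E10 over E6, 2 of 7 were higher, led by CHSY1 (7.02 against 3.22 CPM), and 1 of 7 lower (5.67% of all genes), B4GALT7 (0.870 against 3.51 CPM). B4GALT7 had few UMIs at every stage and was compared both times only through its E6 level, so it could be counted only in these directions. XYLT1, the xylosyltransferase gene that starts these chains, was the 1 of 5 higher in E10 SCX+ cells, with 48.7 against 10.8 CPM. Of the cross-linking and processing enzymes, 1 of 2 compared was higher at E6 over E4 (TLL1, 17.8 against 6.59 CPM) and 0 of 4 at E10 over E6. The counts for these enzymes and for the chondroitin and dermatan sulphate genes cover only part of each list. The remaining genes were not in the files by symbol or had too few UMIs to be compared.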

How the data were processed

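Single cells of chicken forelimbs at E4, E6 and E10 were analysed from the 10x Chromium 3′ (v3 chemistry) matrices. The authors aligned reads to GRCg6a with Cell Ranger 3.0.2, which uses STAR, and deposited raw UMI counts per gene for all barcodes without a cell filter. Cells were called by the UMI minimums given above. Counts were summed over the cells of a group and divided by its total; exact Poisson, Clopper-Pearson and conditional binomial 95% intervals were used, and a count of 0 was set to 3 UMIs. Thinning drew UMIs without replacement. Free RNA was profiled in barcodes with 2 to 50 UMIs. Scrublet at its own threshold marked 1, 0 and 0 cells and had not worked, so no doublets were removed. An alternative left out the highest scores (0.8% per 1000 cells), which was 4.18% (E4), 3.40% (E6) and 21.9% (E10) of cells.

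Non-mesenchymal classes needed at least 3 markers, erythroid-like cells at least 10% haemoglobin UMIs. All members are named; of other genes, related family genes, the extremes of 4 partner lists, the 3 most similar genes per member with at least 200 UMIs, and markers. Members and lists were chosen with earlier results of these data known. Software was scanpy 1.11.5, scipy 1.17.1, pandas 2.3.3 and numpy 2.4.6 under Python 3.11.15. Alternatives: cell minimum, mitochondrial limit, doublets, free RNA, scaling, fold, thinning, marker UMIs and cell weighting, and, chosen after seeing the data, shared barcodes, the 5000 deepest cells and doublet scores in muscle-marker cells with a CT marker. Sequences and coordinates were not used here.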

Additional observations from a re-analysis of the deposited data

Results flagged for a closer look

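A few members passed 2-fold in opposite directions at different stages under the same comparison, with 1 library per stage, and the difference between the stages was not tested. LUM in OSR1+ cells over the other cells had a log2 ratio of 1.41 at E10 (729 against 274 CPM) and -1.62 at E4 (80.7 against 249 CPM). KERA in PRRX1+ cells over the other cells was at 1.20 at E4 (25.6 against 11.1 CPM) and -1.14 at E6 (27.5 against 60.4 CPM). PRRX1+ cells were 87.2% of the E4 library and 56.6% of the E6 library, so the other cells were a different share at each stage.

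Between cells with a single CT marker, DCN in SCX-alone over TWIST2-alone cells was at 1.10 at E10 (4472 against 2082 CPM) and -1.03 at E4 (157 against 321 CPM). LUM in OSR1-alone over TWIST2-alone cells was at 1.16 at E10 (862 against 387 CPM) and -2.18 at E4 (88.0 against 399 CPM). KERA in the same comparison was at 1.38 at E10 (459 against 176 CPM) and -2.10 at E4 (7.55 against 32.3 CPM, on 3 UMIs in OSR1-alone cells), and the E4 value became 1.005 with 2 UMIs of the marker required (7 OSR1-alone cells).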

How the results depend on the processing

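No paired analysis was possible because each stage is 1 library. Alternatives were run for stage ratios over all cells, muscle-marker over PRRX1+ cells, CT marker groups over the other cells, and single-marker groups. Stage ratios within marker groups and the TNMD and cartilage comparisons were not run again. Of 49 member ratios past 2-fold in the comparisons that were, all kept their direction under every alternative that gave a value, except 2 of the 36 that could be fitted with 2 marker UMIs required. KERA at E4 turned to 0.96 (log2) in OSR1+ over other cells (12 OSR1+ cells) and to 1.005 in OSR1-alone over TWIST2-alone cells (7 OSR1 cells). Past 2-fold stayed 43 of 49 with each cell given equal weight, 36 of 41 when thinned and 32 of 36 with 2 marker UMIs, and all but at most 1 under the other alternatives that kept the 2-fold limit. The cause was not tested for any of these changes. In E10 PRRX1+ cells the count of 1 member past 2-fold became 2 with double the UMI minimum, 2 with free RNA subtracted, 2 over the 5000 deepest cells, 3 at 1.5-fold and 0 at 3-fold. In E10 OSR1+ cells the count of 1 became 3 with Scrublet scores removed, 3 with 2 OSR1 UMIs, 2 with free RNA subtracted, 2 when thinned, 2 over the 5000 deepest cells, 5 at 1.5-fold and 0 at 3-fold. In E10 SCX+ cells the count of 4 became 2 when thinned and 1 (FMOD) at 3-fold. At E4 the 2 members lower in muscle-marker cells became 4 at 1.5-fold and 1 (LUM) when thinned. Scaling without haemoglobin, mitochondrial and ribosomal protein genes shifted the median of all genes by at most 0.08 (log2), and 2 marker UMIs by at most 0.21. Depth limits FMOD, EPYC and PRELP most: at E4 and E6 each had under 50 UMIs.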

Other observations

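Ectoderm-like cells (at least 3 of the ectoderm markers, 82, 45 and 182 cells at the 3 stages) held DCN at 405 CPM (341 to 478), 911 CPM (749 to 1098) and 1813 CPM (1676 to 1959), against 207.4, 691.6 and 2143 CPM over all cells. LUM was at 371, 66.3 and 67.4 CPM in them, and OGN at 0 UMIs, 8.29 and 5.61 CPM. At E10, 91 of these 182 cells held a DCN UMI after thinning to 450 UMIs, against 7.82% of endothelial-like, leukocyte-like or erythroid-like cells. PRRX1 was held by 32 of the 82 cells at E4, 3 of the 45 at E6 and 12 of the 182 at E10. A UMI of PRRX1, OSR1, SCX or TWIST2 was held by 42.7%, 8.89% and 11.5% of them, so the E4 group was the most mixed. DCN was thus above the level over all cells at E4 and E6 and below it at E10, while LUM and OGN were below theirs at E6 and E10. Whether mesenchymal RNA or doublets contributed was not tested.

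Other genes of the family that the files list by symbol ranged from 2 UMIs in all cells (NYX) to 2332 (ECM2), against 143 (EPYC) to 82835 (DCN) for the members. ECM2 stood at 3.94, 17.7 and 62.0 CPM at E4, E6 and E10 and TSKU (tsukushi) at 18.04, 32.8 and 48.5 CPM. The row named ASPN, for which it was not settled whether it holds asporin or BGN, had 2 UMIs at E4 and stood at 2.44 CPM at E6 and 19.5 CPM at E10. At E10 ASPN was 35.4 CPM in PRRX1+ cells and 4.30 CPM in muscle-marker cells, and ECM2 was highest in TWIST2+ cells (108 CPM), as none of the 7 members was. PODN and OPTC stayed under 5 CPM at every stage over all cells, OMD had 6 UMIs, all at E10, and NYX had 2, all at E4.

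At E10 the 10220 cells that reached no class (no UMI of PRRX1, SCX, OSR1, TWIST2 or a muscle marker, and too few markers for any other class) held DCN at 2580 CPM (2548 to 2611). The PRRX1+ cells, 604 of which held a muscle marker, stood at 2654 CPM. The disjoint class with PRRX1 alone stood at 3153 CPM (3096 to 3211). At E6 the 747 cells without a class held DCN at 1010 CPM (953 to 1069), against 523 CPM (494 to 553) in the class with PRRX1 alone.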
